A study of Caenorhabditis elegans with 9 samples.

Results

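The genes described here are the enzymes that write and erase chemical marks on histones in *Caenorhabditis elegans* and the proteins that read the marks of heterochromatin. They were taken by symbol, as the numbered *set*, *jmjd*, *hda*, *prmt*, *mys* and *rbr* genes, the *sir-2* genes, and *met-1*, *mes-2*, *mes-3*, *mes-4*, *mes-6*, *utx-1*, *spr-5*, *amx-1*, *lsd-1*, *cbp-1*, *hat-1*, *hpl-1*, *hpl-2* and *lin-61*. The symbols *jmjd-1.2* and *jmjd-3.1* were left out. This rule found 73 of the 46739 genes in the table by their symbols alone. mRNA was sequenced in 9 libraries of whole N2 wild-type worms: 3 after *cco-1* RNAi, which lowers a subunit of complex IV of the mitochondrial respiratory chain, 3 after *his-3* RNAi, which is directed at histone H2A genes, and 3 on empty vector (EV). RNAi was given by feeding from the L1 larval stage, all worms were collected as L4 larvae, and the groups share strain, stage and feeding scheme. The question behind the groups is how worms with mitochondrial stress and worms with too little of a histone adjust the expression of their genes.

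Histone tails carry methyl and acetyl groups. Acetyltransferases add acetyl groups and deacetylases and sirtuins remove them, and acetylated tails are found at active genes. Methylation depends on the residue: on lysine 4 or 36 of histone H3 (H3K4, H3K36) it marks active or transcribed genes, and on lysine 9 or 27 (H3K9, H3K27) it marks silenced chromatin, where HP1 proteins bind methylated H3K9. SET proteins and arginine methyltransferases write methyl groups, and LSD1-type and jumonji enzymes erase them.

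The libraries held between 25129763 and 32017517 reads on genes, of which the 73 genes took between 0.298 and 0.302% after *cco-1* RNAi, between 0.312 and 0.325% after *his-3* RNAi and between 0.277 and 0.278% on EV. After scaling by TMM, which sets libraries to a common level by the bulk of the genes, their summed normalised read counts lay between 85079 and 86142 after *cco-1* RNAi, between 82899 and 83732 after *his-3* RNAi and between 83699 and 86006 on EV. The ranges stood apart between all groups before this scaling, and after it the EV range overlapped with those of both treatments. The reads of *cox-5B*, the annotated name of *cco-1*, fell after *cco-1* RNAi to 0.373 of the EV level, and those of *his-3* fell after *his-3* RNAi to 0.624 of it. Both targeted genes were also lower with the other treatment, at 0.746 of the EV level for *cox-5B* after *his-3* RNAi and 0.103 for *his-3* after *cco-1* RNAi. Histone genes have near-identical copies, and reads that align to several places were not counted, so the value of *his-3* is uncertain.

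Of the 73 genes, 69 had more than 5 reads in more than 3 libraries and were tested. With *cco-1* RNAi, 36 of the 69 rose and 15 fell at an adjusted p under 0.05, which is 52.2% and 21.7% of them, against 34.9% higher and 35.9% lower among all 16817 genes tested. The other 18 did not pass the test. The median log2 fold change was 0.15 for the 69 genes and 0.01 for all genes tested. The share that rose thus lay above that of all genes and the share that fell lay below it, while most log2 fold changes were small: 58 were below 0.5 in size on the log2 scale, 4 between 0.5 and 1, and 7 (10.1%) at or above 1. All 7 were called, and 22.5% of all genes tested were called with a change of at least 1. The 7 include *set-28*, which passed the filter only through RNAi libraries.

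With *his-3* RNAi, 22 of the 69 rose and 17 fell, 31.9% and 24.6% of them, against 26.9% higher and 27.9% lower among all genes tested. These shares are close to those of all genes, and the median log2 fold change, 0.04, was close to the 0.02 of all genes. Here 60 members had log2 fold changes of less than 0.5 in size, 6 of 0.5 to 1 and 3 (4.35%) of 1 or more. All 3 were called, and 11.5% of all genes tested were called with a change of at least 1. In the direct comparison of *cco-1* RNAi with *his-3* RNAi, 27 of the 69 were higher and 14 lower after *cco-1* RNAi, against 31.8% higher and 36.8% lower among all genes, with a median of 0.05 for the members and -0.05 for all genes. The bar chart sets these shares side by side.

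**Figure D1:**
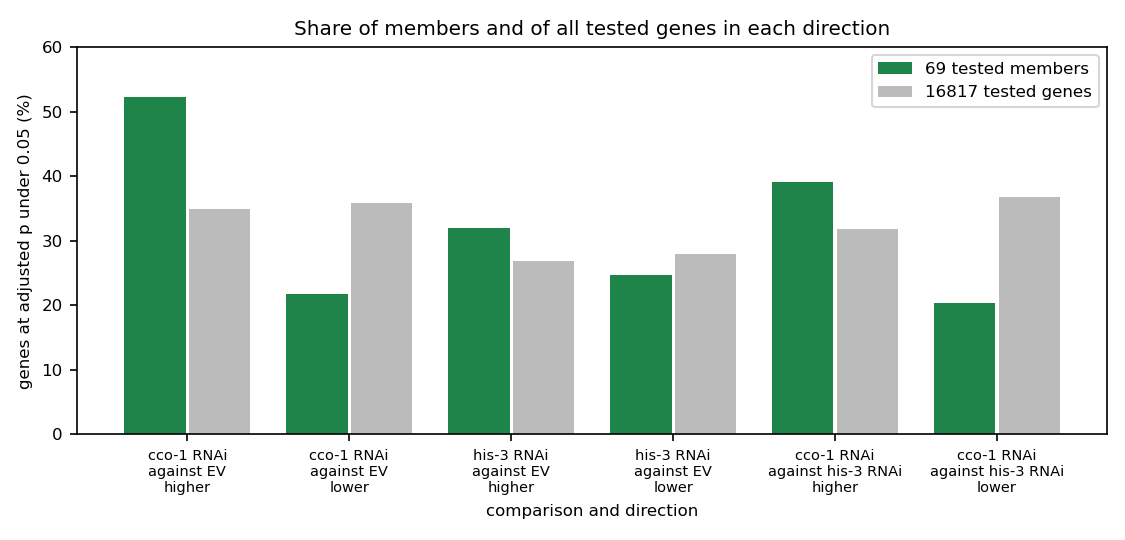
Share of the 69 tested members (green) and of all 16817 tested genes (grey) at an adjusted p under 0.05, in percent on the vertical axis, for each comparison and direction. With *cco-1* RNAi 52.2% of the members and 34.9% of all genes were higher than on EV, while after *his-3* RNAi the pairs of bars differ less.

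The split between higher and lower depends on how the libraries are scaled, for the members and for all genes. Of the members called after *cco-1* RNAi, 70.6% were higher (all genes 49.3%), and this became 80.8% by upper quartile (all genes 56.6%), 81.1% by library size alone (57.1%) and 85.2% by the 2 reference genes (*act-1*, *pmp-3*; all genes 62.3%). Of those called after *his-3* RNAi, 56.4% were higher (all genes 49.1%), and this became 50% with DESeq2 size factors (all genes 45%), 69% by upper quartile (60.7%), 87.5% by library size (77.3%) and 91.3% by the reference genes (83.8%). The members' share was above that of all genes under each of these scalings. Each scaling shifts the members and all genes by nearly the same step, so these are not separate checks. For *cco-1* RNAi against *his-3* RNAi, the 65.9% higher (all genes 46.4%) became 39% by library size (35%) and 41% by the reference genes (34.7%). The reference genes moved the median of all genes by the same step as that of the members, to 0.17 after *cco-1* RNAi and to 0.31 after *his-3* RNAi. The members' median relative to all genes therefore stayed at 0.14 after *cco-1* RNAi and 0.02 after *his-3* RNAi. With TMM, *act-1* itself fell by 0.47 on the log2 scale after *cco-1* RNAi and by 0.64 after *his-3* RNAi. The other reference gene, *pmp-3*, was higher after *cco-1* RNAi by 0.14 (adjusted p = 0.0141) and had a log2 fold change of 0.06 after *his-3* RNAi (adjusted p = 0.291).

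Whole worms were measured, so fewer cells of a type and less RNA per cell cannot be told apart. Of 18 sperm genes, 16 fell after *cco-1* RNAi (summed level 17137 to 17585 normalised reads, against 23044 to 23434 on EV) and 2 fell and 1 rose after *his-3* RNAi. All 14 oocyte genes rose after *his-3* RNAi (27382 to 29493, against 20466 to 21526 on EV), and 2 rose and 2 fell after *cco-1* RNAi. Of 20 genes of P granules and meiosis, 3 rose and 10 fell after *cco-1* RNAi and 6 rose and 9 fell after *his-3* RNAi. Of 9 body wall muscle genes, 5 fell after *cco-1* RNAi and 7 after *his-3* RNAi, of 10 neuron genes 7 rose and 1 fell after *cco-1* RNAi and 6 rose after *his-3* RNAi, and of 7 intestinal genes 4 rose and 3 fell after *cco-1* RNAi and 7 fell after *his-3* RNAi. Of 8 epidermal genes, 3 rose and 4 fell after *cco-1* RNAi and 3 rose and 1 fell after *his-3* RNAi. The summed level of the epidermal genes was 10933 to 14465 after *cco-1* RNAi and 45435 to 56233 after *his-3* RNAi, against 54978 to 56850 on EV. That of the intestinal genes was 72404 to 75203 after *cco-1* RNAi and 28126 to 33943 after *his-3* RNAi, against 42819 to 45807 on EV. Such a sum weighs the most expressed genes of a list most. These counts and sums are under TMM scaling alone. Among all genes tested, 34.9% rose and 35.9% fell after *cco-1* RNAi, and 26.9% rose and 27.9% fell after *his-3* RNAi. None of these marker genes was at 0 in all libraries, and the part of such shifts in the values that follow was not tested.

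**Figure D2:**
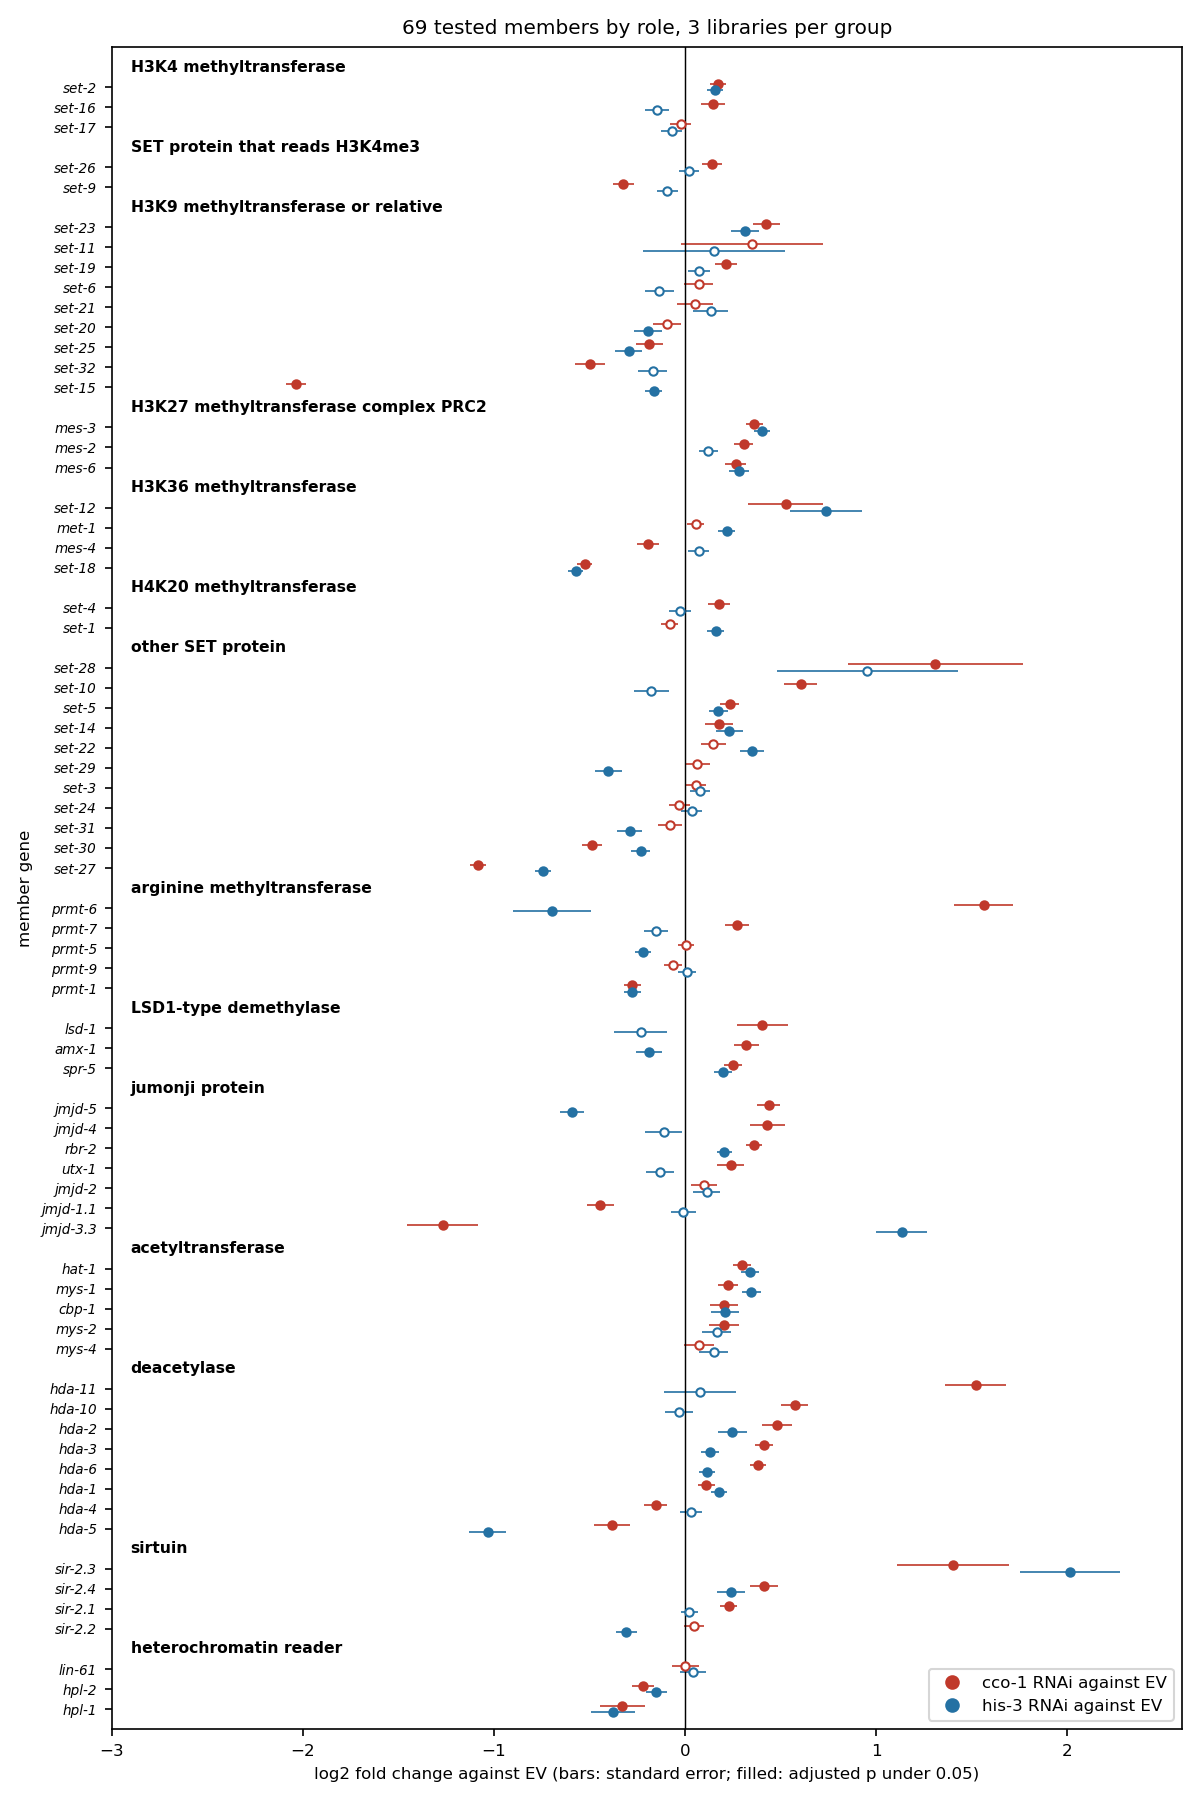
Log2 fold change against EV of the 69 tested genes, grouped by role, with red points for *cco-1* RNAi and blue points for *his-3* RNAi, bars for the standard error and filled points for an adjusted p under 0.05 (3 libraries per group). Most points lie within 0.5 of 0, and *set-15*, *prmt-6*, *hda-11*, *jmjd-3.3*, *sir-2.3* and, on few reads, *set-28* lie farthest out.

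Among the H3K4 methyltransferases, *set-2*, the SET1 enzyme of the COMPASS complex, had normalised read counts of 3215, 3309.5 and 3257 after *cco-1* RNAi, 3288, 3232 and 3154 after *his-3* RNAi and 2801, 2975 and 2907 on EV. All 6 RNAi libraries lay above the 3 EV libraries. The log2 fold change was 0.17 (SE 0.0406, adjusted p = 0.00125) after *cco-1* RNAi and 0.16 (SE 0.0405, adjusted p = 0.00374) after *his-3* RNAi, and the second call was lost without EV library 1 (0.10). *set-16*, a relative of the mammalian MLL3 and MLL4 enzymes, had 2942, 3043 and 2875 after *cco-1* RNAi, 2215, 2499 and 2519.9 after *his-3* RNAi and 2536, 2953 and 2528 on EV. Its EV library 2 lay among the *cco-1* libraries, and the groups overlap. It was higher after *cco-1* RNAi by 0.15 (SE 0.0617, adjusted p = 0.045), a call that was lost without each *cco-1* library in turn and without EV library 1 or 3 or *his-3* library 3, and it did not pass the test after *his-3* RNAi (-0.15, adjusted p = 0.0547). This last value was called with DESeq2, its size factors, no filter or a replicate block and without each of 4 single libraries in turn. Without EV library 2, the value for *cco-1* RNAi was 0.22. Between the treatments it was higher after *cco-1* RNAi by 0.29 (SE 0.0617, adjusted p = 0.000493). The third enzyme of this group, *set-17*, was not called in either comparison with EV.

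The H3K9 group holds 10 SET genes, of which some are known H3K9 methyltransferases and others are relatives by sequence. Of the 9 tested, 2 rose and 3 fell after *cco-1* RNAi and 1 rose and 3 fell after *his-3* RNAi. Each role holds few genes, and no count by role, here or below, was tested against the shares of all genes. Those shares were 34.9% higher and 35.9% lower after *cco-1* RNAi, and 26.9% and 27.9% after *his-3* RNAi. *set-15* (WBGene00020006, chromosome IV, 4776364 to 4780229 on WBcel235) had the largest fall of any member after *cco-1* RNAi. Its counts were 322, 322 and 319 after *cco-1* RNAi, 1182, 1201 and 1142 after *his-3* RNAi and 1310.4, 1334 and 1302 on EV. The *cco-1* libraries lay within 4 reads of each other and far below all others. The level fell to 0.244 of that on EV, a log2 fold change of -2.03 (SE 0.0525, adjusted p = 2.50e-15), and *set-15* was also lower after *cco-1* RNAi than after *his-3* RNAi (log2 fold change -1.87, SE 0.0526, adjusted p = 9.36e-15). Its log2 fold change after *his-3* RNAi was -0.16 (SE 0.0447, adjusted p = 0.00547), and this small difference lost its call by upper quartile and became positive, 0.06, by library size and 0.13 by the reference genes.

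*set-25*, a writer of trimethylated H3K9 in heterochromatin, had 344, 336 and 351 after *cco-1* RNAi, 323, 324 and 309.7 after *his-3* RNAi and 391, 414 and 370.1 on EV. All RNAi libraries were below all EV libraries. The change on the log2 scale was -0.19 (SE 0.0698, adjusted p = 0.0245) after *cco-1* RNAi and -0.29 (SE 0.0694, adjusted p = 0.00181) after *his-3* RNAi, and neither call held when libraries were scaled by library size or by the reference genes. The first was also lost by upper quartile, with DESeq2 and without each of 4 single libraries in turn. *set-32*, which is known for its part in the inheritance of silencing by small RNAs, had 303, 319 and 309.9 after *cco-1* RNAi, 410.4, 349 and 411 after *his-3* RNAi and 460.3, 434 and 421 on EV. The *cco-1* libraries lay below all others, and the *his-3* libraries lay between the other groups. It fell by 0.50 (SE 0.0789, adjusted p = 3.07e-05) after *cco-1* RNAi under every alternative tried, and did not pass the test after *his-3* RNAi (-0.17, adjusted p = 0.0692).

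Of the 3 readers of heterochromatin, 2 were called lower with both treatments under TMM, and none of these calls held by library size or by the reference genes. *hpl-1*, one of the worm's HP1 proteins, had 154, 135 and 133 after *cco-1* RNAi, 147, 145 and 116 after *his-3* RNAi and 189, 158 and 183 on EV, and the RNAi libraries lay below the EV libraries. Its log2 fold change was -0.33 (SE 0.116, adjusted p = 0.0187) after *cco-1* RNAi and -0.38 (SE 0.114, adjusted p = 0.0106) after *his-3* RNAi. *hpl-2*, the other HP1 protein, is known for roles in the germ line and in vulval development. It had 1060, 1084 and 1077 after *cco-1* RNAi, 1054, 1225 and 1099 after *his-3* RNAi and 1226, 1214 and 1307 on EV, where *his-3* library 2 reached into the EV range. The log2 fold change of *hpl-2* was -0.22 (SE 0.0569, adjusted p = 0.0026) after *cco-1* RNAi and -0.15 (SE 0.0561, adjusted p = 0.0323) after *his-3* RNAi, and the last value became 0.07 by library size and 0.14 by the reference genes. After *cco-1* RNAi both HP1 genes kept their sign under these scalings, and both calls were also lost by upper quartile. The call of *hpl-1* after *cco-1* RNAi was also lost without each of 4 single libraries in turn, and that after *his-3* RNAi without *his-3* library 3. For *hpl-2* the call after *his-3* RNAi was also lost by upper quartile, with only the groups compared, and without *his-3* library 1 or 3 or EV library 3. *lin-61*, a reader with MBT repeats that binds methylated H3K9, had 1534, 1443 and 1472 after *cco-1* RNAi, 1635, 1311 and 1624 after *his-3* RNAi and 1532, 1443 and 1466 on EV, with groups that overlap. Its log2 fold change was 0.002 after *cco-1* RNAi (adjusted p = 0.977) and 0.04 after *his-3* RNAi (adjusted p = 0.641).

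PRC2, the complex that methylates H3K27, consists in worms of MES-2, the enzyme and an EZH2 ortholog, MES-6, an EED ortholog, and MES-3, and it is needed in the germ line. All 3 genes rose after *cco-1* RNAi under each of the 19 alternatives tried. *mes-2* had 1265, 1170.1 and 1278 normalised reads after *cco-1* RNAi, 1127, 1054 and 1084 after *his-3* RNAi and 1018, 985 and 997 on EV. Its log2 fold change was 0.31 (SE 0.0503, adjusted p = 4.21e-05) after *cco-1* RNAi, and 0.12 after *his-3* RNAi (adjusted p = 0.0508), just outside the threshold although the libraries do not overlap. It was called with a replicate block, under the upper quartile, library size and reference gene scalings, with the filter of edgeR and without *cco-1* library 2 or *his-3* library 2. For each of the 3 genes, all RNAi libraries lay above the EV libraries. *mes-3* had 2196, 2248 and 2229 after *cco-1* RNAi, 2363, 2266 and 2235 after *his-3* RNAi and 1661, 1753 and 1774 on EV, and rose by 0.36 (SE 0.0429, adjusted p = 1.10e-06) after *cco-1* RNAi and by 0.40 (SE 0.0426, adjusted p = 5.72e-07) after *his-3* RNAi. *mes-6* had 947, 943 and 932 after *cco-1* RNAi, 1011, 891 and 954 after *his-3* RNAi and 797, 766 and 784 on EV, with changes of 0.27 (SE 0.0548, adjusted p = 0.000378) and 0.28 (SE 0.0542, adjusted p = 0.000315) in the same order of treatments. Of the 20 genes of P granules and meiosis, 3 rose and 10 fell after *cco-1* RNAi and 6 rose and 9 fell after *his-3* RNAi, and of the 14 oocyte genes 2 rose and 2 fell after *cco-1* RNAi and 14 rose after *his-3* RNAi. Their part in the PRC2 values was not tested. In the annotation used here, 22.7% of the exon bases of *mes-6* lie in another gene on the same strand, and reads there may have been left uncounted as ambiguous.

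Methylation of H3K36 and of lysine 20 of histone H4 (H4K20) is written by separate SET enzymes. *met-1*, which trimethylates H3K36, had 1803, 1919.8 and 1784 after *cco-1* RNAi, 2055, 2029 and 2084 after *his-3* RNAi and 1711, 1840.4 and 1754 on EV. Only the *his-3* libraries stood above EV, with a log2 fold change of 0.22 (SE 0.0445, adjusted p = 0.00056), against 0.05 after *cco-1* RNAi (adjusted p = 0.288). *mes-4*, which maintains H3K36 methylation in the germ line, had 1236, 1319.8 and 1409.8 after *cco-1* RNAi, 1675, 1622 and 1467 after *his-3* RNAi and 1494, 1528 and 1512 on EV. It was below EV in every *cco-1* library and around EV in the *his-3* libraries. It fell by 0.19 (SE 0.0572, adjusted p = 0.00633) after *cco-1* RNAi, a call lost by upper quartile, library size and reference gene scaling, and it was lower after *cco-1* RNAi than after *his-3* RNAi (log2 fold change -0.27, SE 0.0566, adjusted p = 0.000541) under every alternative. *set-18* (WBGene00044070, chromosome I, 10590703 to 10593968), a SMYD-family H3K36 methyltransferase, fell with both treatments. It had 1619.7, 1641 and 1628 after *cco-1* RNAi, 1627, 1560 and 1544 after *his-3* RNAi and 2349, 2312 and 2374 on EV, and all RNAi libraries were well below EV. Against EV, the log2 fold change was -0.53 (SE 0.0404, adjusted p = 5.01e-09) after *cco-1* RNAi and -0.57 (SE 0.0402, adjusted p = 3.89e-09) after *his-3* RNAi under TMM, the calls held under every alternative, and the direct comparison of the treatments gave 0.05 (adjusted p = 0.321).

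*set-12*, a further SET gene of the H3K36 group, was low in all libraries. It had 56.3, 50.9 and 43.1 after *cco-1* RNAi, 61.8, 63.5 and 49.1 after *his-3* RNAi and 29, 43.1 and 33.1 on EV. The RNAi libraries were above EV, but the highest EV library came close to the lowest *cco-1* library. The fitted log2 fold change was 0.53 (SE 0.197, adjusted p = 0.0255) after *cco-1* RNAi, a call lost without each of 4 single libraries in turn, and 0.74 (SE 0.188, adjusted p = 0.00335) after *his-3* RNAi. *set-1*, which monomethylates H4K20, had 1560.4, 1457 and 1502 after *cco-1* RNAi, 1767, 1843 and 1728 after *his-3* RNAi and 1591, 1594 and 1591 on EV. The *his-3* libraries were the highest and the *cco-1* libraries the lowest, with a log2 fold change of 0.16 (SE 0.0436, adjusted p = 0.00515) for *his-3* RNAi, -0.08 for *cco-1* RNAi (adjusted p = 0.118) and -0.24 (SE 0.0438, adjusted p = 0.000126) between the treatments. The call after *his-3* RNAi was lost without EV library 1, and the value for *cco-1* RNAi was called when only these groups were fitted. *set-4*, which adds the further methyl groups to H4K20 that are known from X chromosome dosage compensation, had 983, 953 and 988 after *cco-1* RNAi, 870.4, 887 and 772 after *his-3* RNAi and 875, 829.6 and 875 on EV. It rose after *cco-1* RNAi by 0.18 (SE 0.0576, adjusted p = 0.0106) while the *his-3* libraries overlap with EV (-0.03, adjusted p = 0.702).

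Of 12 SET genes with no assigned residue here, 11 were tested, and 4 rose and 2 fell after *cco-1* RNAi while 3 rose and 4 fell after *his-3* RNAi. *set-27* (WBGene00022173, chromosome III, 2700937 to 2707846) fell most among them. It had 1058, 1027 and 1031 after *cco-1* RNAi, 1307, 1282 and 1359.6 after *his-3* RNAi and 2191, 2210.5 and 2203 on EV, so that the groups lay in separate ranges and *cco-1* RNAi was lowest. The log2 fold change was -1.08 (SE 0.0427, adjusted p = 6.67e-13) after *cco-1* RNAi and -0.74 (SE 0.0414, adjusted p = 2.01e-10) after *his-3* RNAi, and *set-27* was lower after *cco-1* RNAi than after *his-3* RNAi (log2 fold change -0.34, SE 0.0437, adjusted p = 2.85e-06). These calls held under every alternative. *set-10* (WBGene00009370, chromosome I, 15027713 to 15030708) had 362, 341 and 318 after *cco-1* RNAi, 202, 182 and 209.6 after *his-3* RNAi and 206, 235 and 230.0 on EV. Only the *cco-1* libraries were high, with a rise of 0.61 (SE 0.0862, adjusted p = 9.18e-06) against EV, 0.78 (SE 0.0865, adjusted p = 4.99e-07) against *his-3* RNAi, and a difference of -0.18 between *his-3* RNAi and EV that did not pass the test (adjusted p = 0.114). *set-28* was near the limit of detection, with 11, 10 and 11 reads after *cco-1* RNAi, 10, 4 and 14 after *his-3* RNAi and 4, 4 and 5 on EV. Its rise of 1.31 (SE 0.458, adjusted p = 0.0177) after *cco-1* RNAi rests on these few reads. It passed the filter only through RNAi libraries, since no EV library had more than 5 reads. When only the *cco-1* and EV libraries were fitted, *set-28* was below the filter and was not tested.

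*set-9* and *set-26* encode near-identical proteins that bind trimethylated H3K4. They were given opposite calls after *cco-1* RNAi, -0.32 for *set-9* and 0.14 for *set-26* on the log2 scale. *set-9* had 1677, 1724 and 1837 normalised reads after *cco-1* RNAi and 2139, 2278 and 2134 on EV, and *set-26* had 1539.9, 1587 and 1637 after *cco-1* RNAi and 1401, 1471 and 1442 on EV. Reads that fit both genes were left uncounted by the authors, so these values come from the stretches where the genes differ and are uncertain, and the call of *set-26* was lost without each of 3 single libraries in turn.

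**Figure D3:**
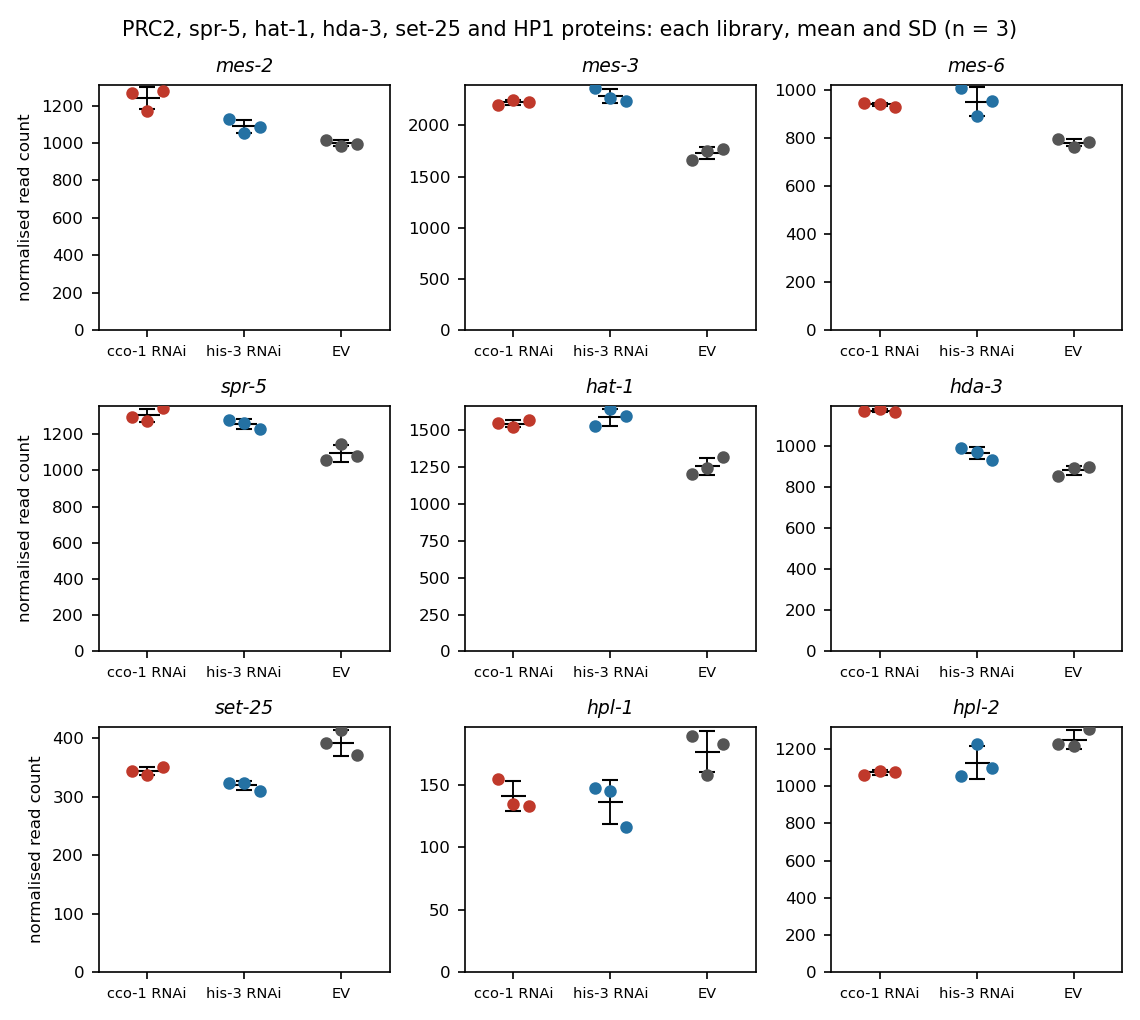
Normalised read count (vertical axis, from 0) in each library of *cco-1* RNAi, *his-3* RNAi and EV for the PRC2 genes, *spr-5*, *hat-1*, *hda-3*, *set-25* and the HP1 genes, with the mean and SD of 3 libraries in black. The RNAi libraries lie above EV for the PRC2 genes and below EV for *set-25* and *hpl-1*.

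Of 6 arginine methyltransferase genes, 5 were tested, and 2 rose and 1 fell after *cco-1* RNAi while 3 were called lower after *his-3* RNAi, none of which was called by the reference genes. *prmt-1*, the main enzyme for asymmetric dimethylarginine, had the highest level per length of all 73 genes, 326 ± 3.08 RPKM on EV (reads per kilobase of exon, scaled for depth, mean ± SD, n = 3). Its normalised counts were 9679, 9857 and 9702 after *cco-1* RNAi, 9251, 10005 and 9988 after *his-3* RNAi and 11754, 11926 and 11718 on EV. All RNAi libraries were below EV, with a log2 fold change of -0.28 (SE 0.0452, adjusted p = 4.22e-05) after *cco-1* RNAi and -0.28 (SE 0.0452, adjusted p = 7.19e-05) after *his-3* RNAi. By the reference genes the first was not called and the last became 0.01. *prmt-5*, the enzyme for symmetric dimethylarginine, had 3229, 3211 and 3127 after *cco-1* RNAi, 2779, 2629.7 and 2779 after *his-3* RNAi and 3179, 3242 and 3113 on EV. The *cco-1* and EV libraries overlap (0.01, adjusted p = 0.913), and the *his-3* libraries were lower (log2 fold change -0.22, SE 0.0408, adjusted p = 0.00024), a value that became 0.0006 by library size and 0.07 by the reference genes.

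*prmt-6* (WBGene00016023, chromosome IV, 2130965 to 2133029), a further member of the arginine methyltransferase family, moved in opposite directions with the treatments. Its counts were 161, 233 and 188 after *cco-1* RNAi, 35.6, 35 and 51 after *his-3* RNAi and 66.4, 67.4 and 63.4 on EV. No library of one group entered the range of another. The level was 2.96 times that on EV after *cco-1* RNAi, a log2 fold change of 1.56 (SE 0.155, adjusted p = 1.29e-07), and 0.617 times that on EV after *his-3* RNAi, a log2 fold change of -0.70 (SE 0.202, adjusted p = 0.00788) that did not pass the test with the reference genes. The difference between the treatments was 2.26 (SE 0.167, adjusted p = 2.86e-09), a level 4.79 times as high after *cco-1* RNAi as after *his-3* RNAi.

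**Figure D4:**
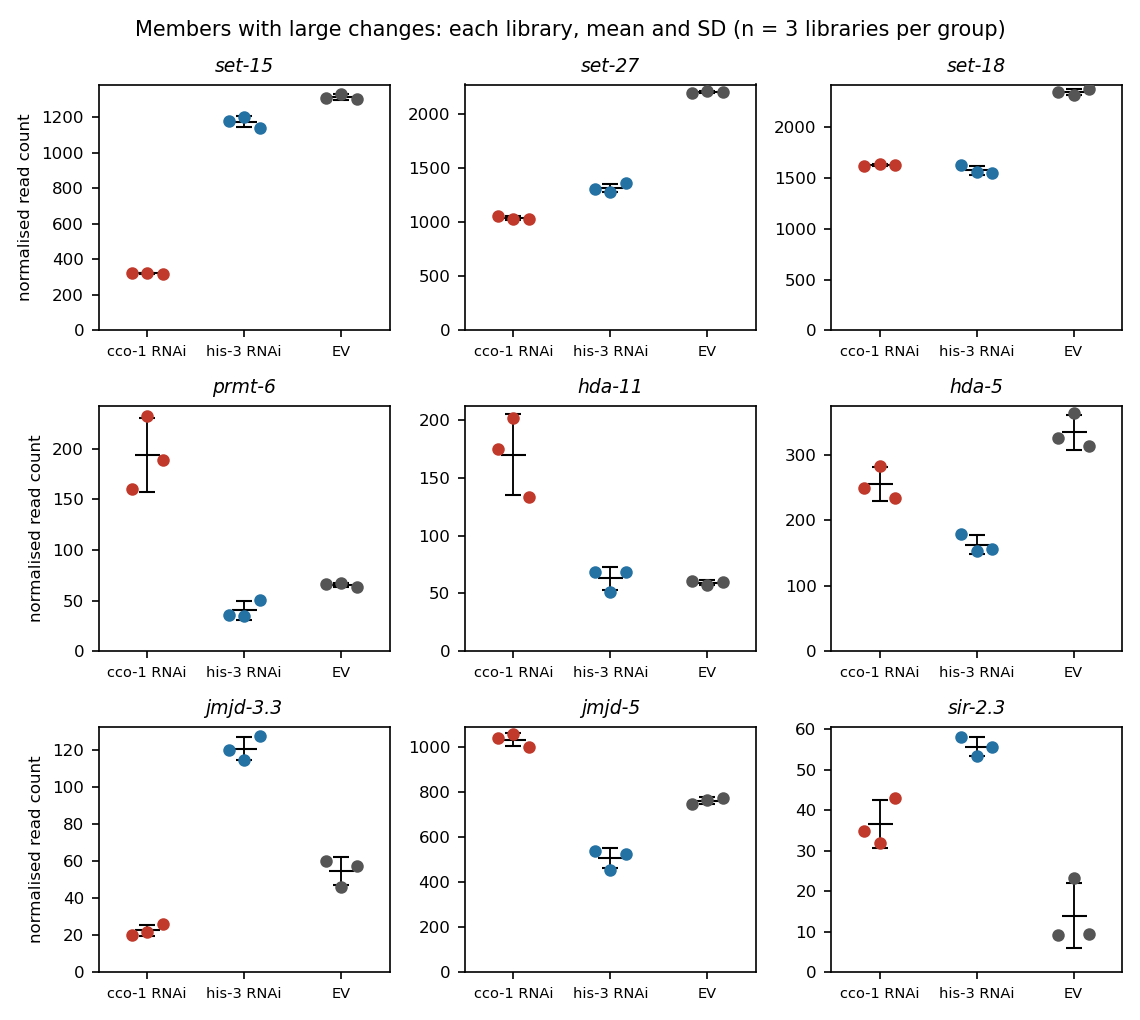
Normalised read count (vertical axis, from 0) in each library of *cco-1* RNAi, *his-3* RNAi and EV for 9 of the members with the largest changes, with the mean and SD of 3 libraries in black. *prmt-6* and *jmjd-5* are highest after *cco-1* RNAi and lowest after *his-3* RNAi, and *jmjd-3.3* has the opposite order.

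The 3 LSD1-type demethylases rose after *cco-1* RNAi, as did 34.9% of all genes tested. *spr-5*, which removes methyl groups from H3K4 and is known for keeping germ line chromatin free of marks passed on between generations, had 1295, 1272 and 1344 after *cco-1* RNAi, 1279, 1264 and 1226 after *his-3* RNAi and 1056, 1146 and 1081 on EV. All RNAi libraries lay above EV, by 0.25 (SE 0.0479, adjusted p = 0.000176) after *cco-1* RNAi and 0.20 (SE 0.0476, adjusted p = 0.00197) after *his-3* RNAi. *lsd-1*, its lower expressed relative, had 138, 169 and 158 after *cco-1* RNAi, 93.7, 109 and 95.4 after *his-3* RNAi and 124, 92.8 and 132 on EV. It was higher after *cco-1* RNAi by 0.41 (SE 0.131, adjusted p = 0.0114), a call lost without *cco-1* library 2 or EV library 2. It did not pass the test after *his-3* RNAi (-0.23, adjusted p = 0.172) and was higher after *cco-1* RNAi than after *his-3* RNAi by 0.64 (SE 0.133, adjusted p = 0.000443). The third, *amx-1*, rose after *cco-1* RNAi (log2 fold change 0.32, adjusted p = 0.000386) and was lower after *his-3* RNAi (-0.19, adjusted p = 0.0287), the second call being lost, among others, under 3 scalings and without each of 4 single libraries in turn.

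Of 8 jumonji genes, 7 were tested, and 4 rose and 2 fell after *cco-1* RNAi while 2 rose and 1 fell after *his-3* RNAi. *rbr-2*, which removes methyl groups from trimethylated H3K4, had 3742, 3749 and 3857 after *cco-1* RNAi, 3397, 3331 and 3473 after *his-3* RNAi and 2873, 3029 and 2941 on EV. Its groups were in separate ranges, with rises of 0.36 (SE 0.0404, adjusted p = 5.95e-07) after *cco-1* RNAi and 0.21 (SE 0.0403, adjusted p = 0.000378) after *his-3* RNAi. *utx-1*, an H3K27 demethylase, had 393, 390.4 and 368 after *cco-1* RNAi, 281, 302 and 309 after *his-3* RNAi and 311, 330.3 and 334 on EV. It rose after *cco-1* RNAi by 0.24 (SE 0.0714, adjusted p = 0.00682), and its *his-3* libraries were below EV without passing the test (-0.13, adjusted p = 0.143). *jmjd-2*, a demethylase of H3K9 and H3K36, had 633, 603 and 621 after *cco-1* RNAi, 573, 694 and 608 after *his-3* RNAi and 571, 598 and 566 on EV, and passed the test with neither treatment (log2 fold change 0.10, adjusted p = 0.219, and 0.11, adjusted p = 0.183). Both values were called by upper quartile, library size and the reference genes, and the one for *his-3* RNAi also without *his-3* library 1.

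*jmjd-5* (WBGene00007387, chromosome V, 11127497 to 11130095), known as a demethylase of dimethylated H3K36, had 1038, 1056 and 1001 after *cco-1* RNAi, 536, 455 and 527 after *his-3* RNAi and 745, 764 and 774 on EV. Each group had a range of its own, *cco-1* RNAi being highest and *his-3* RNAi lowest. The gene rose by 0.44 (SE 0.0602, adjusted p = 6.26e-06) after *cco-1* RNAi and fell by 0.59 (SE 0.0638, adjusted p = 7.55e-07) after *his-3* RNAi on the log2 scale, and differed between the treatments by 1.03 (SE 0.0623, adjusted p = 2.17e-10), all under every alternative. *jmjd-3.3* (WBGene00007813, chromosome X, 13436422 to 13441438), a relative of the H3K27 demethylases UTX and JMJD3, had the reverse order. It had 20.5, 22 and 26.1 after *cco-1* RNAi, 119.9, 115 and 127 after *his-3* RNAi and 60.1, 46.4 and 57.7 on EV. The change on the log2 scale was -1.27 (SE 0.188, adjusted p = 1.46e-05) after *cco-1* RNAi, 1.13 (SE 0.133, adjusted p = 1.95e-06) after *his-3* RNAi and -2.402 (SE 0.161, adjusted p = 7.97e-10) between the treatments, the last being the largest difference between treatments among the 69 genes. Its level per length was low, with 0.74 ± 0.0991 RPKM on EV.

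*jmjd-3.2* (WBGene00009089, chromosome X, 14448210 to 14453567), another relative of UTX and JMJD3, was not tested, because only the *cco-1* libraries had more than 5 reads. It had 15, 18 and 12 reads after *cco-1* RNAi, 0, 1 and 3 after *his-3* RNAi and 1, 2 and 0 on EV. The 45 reads after *cco-1* RNAi against 3 on EV, scaled by the sizes of the libraries, give a ratio of 15.3 (95% exact interval 4.93 to 77.2, counting error only), and the ratio of *cco-1* RNAi to *his-3* RNAi was 12.6 (4.61 to 48.4). With no filter on low counts its log2 fold change was 3.78 after *cco-1* RNAi (SE 0.66). The gene was picked after its values were seen, so no p-value is given for it. After *cco-1* RNAi the values of *jmjd-3.2* and *jmjd-3.3* had opposite signs, that of *jmjd-3.2* on few reads and without a test. The other members below the filter were *prmt-4* with 21, 11 and 4 reads in all, *set-13* with 10, 10 and 4 and *set-8* with 0, 1 and 1, in the order of *cco-1* RNAi, *his-3* RNAi and EV. *prmt-4* had 11, 9 and 1 reads after *cco-1* RNAi, 5, 3 and 3 after *his-3* RNAi and 2, 0 and 2 on EV. Its *cco-1* library 3 was below EV libraries 1 and 3, so the groups overlap. For *prmt-4* the ratio of summed reads of *cco-1* RNAi to EV was 5.37 (1.81 to 21.5), and for *set-13* it was 2.56 (0.738 to 11.2), which includes 1.

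Of the 5 acetyltransferases none was called lower with either treatment, and 4 rose after *cco-1* RNAi and 3 after *his-3* RNAi. All genes tested had 34.9% higher and 35.9% lower after *cco-1* RNAi, and 26.9% and 27.9% after *his-3* RNAi. *hat-1*, the enzyme that acetylates newly made histone H4, had 1547, 1518 and 1566 after *cco-1* RNAi, 1526, 1641 and 1595 after *his-3* RNAi and 1206, 1241 and 1316 on EV. All RNAi libraries were above EV, by 0.30 (SE 0.0477, adjusted p = 3.13e-05) after *cco-1* RNAi and 0.34 (SE 0.0472, adjusted p = 1.29e-05) after *his-3* RNAi. *mys-1*, the TIP60 ortholog, had 1098, 1003 and 1074 after *cco-1* RNAi, 1143, 1204 and 1113 after *his-3* RNAi and 899, 890.4 and 929 on EV, again with all RNAi libraries above EV. It rose by 0.22 (SE 0.0526, adjusted p = 0.00124) after *cco-1* RNAi and 0.35 (SE 0.0518, adjusted p = 2.67e-05) after *his-3* RNAi. The calls of both genes against EV held under every alternative. *mys-2*, the MOF ortholog, had 812, 854 and 749 after *cco-1* RNAi, 702, 879 and 774 after *his-3* RNAi and 744, 689 and 668 on EV, and its libraries after *cco-1* RNAi were just above EV (log2 fold change 0.20, SE 0.0782, adjusted p = 0.0294). This call was lost without each of 4 single libraries in turn, and after *his-3* RNAi the test was not passed (0.17, adjusted p = 0.0837).

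*cbp-1*, the p300/CBP ortholog, had 5849.5, 5943 and 5791 after *cco-1* RNAi, 5413, 6062 and 6162 after *his-3* RNAi and 4659, 5887 and 4736 on EV. EV library 2 lay inside the range of the RNAi libraries and the other EV libraries below it. Against EV, the log2 fold change was 0.20 (SE 0.0736, adjusted p = 0.0214) after *cco-1* RNAi and 0.21 (SE 0.0735, adjusted p = 0.0249) after *his-3* RNAi. Both calls were lost without EV library 1 or EV library 3, and the second also with DESeq2 and without *his-3* library 2 or 3. Without EV library 2 the log2 fold changes were 0.32 after *cco-1* RNAi and 0.32 after *his-3* RNAi, and without EV library 1 that after *his-3* RNAi was 0.11.

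Of the 8 zinc-dependent deacetylases, 6 rose and 2 fell after *cco-1* RNAi, and 4 rose and 1 fell after *his-3* RNAi. The shares of all genes tested were 34.9% higher and 35.9% lower after *cco-1* RNAi, and 26.9% and 27.9% after *his-3* RNAi. *hda-1*, the main class I deacetylase, had 2819, 2635 and 2822 after *cco-1* RNAi, 2880.1, 2984 and 2800.3 after *his-3* RNAi and 2499.6, 2627 and 2534 on EV. The RNAi libraries were above EV by a small step, 0.11 (SE 0.0442, adjusted p = 0.0335) after *cco-1* RNAi, which was lost without each of 4 single libraries in turn and with no filter, and 0.18 (SE 0.0439, adjusted p = 0.00259) after *his-3* RNAi. *hda-3*, another class I deacetylase, had 1172, 1183 and 1168 after *cco-1* RNAi, 993, 971 and 934 after *his-3* RNAi and 856, 894 and 897 on EV, with separate ranges and *cco-1* RNAi highest. It rose by 0.41 (SE 0.0476, adjusted p = 8.34e-07) after *cco-1* RNAi and by 0.13 (SE 0.0479, adjusted p = 0.0296) after *his-3* RNAi, and was higher after *cco-1* RNAi than after *his-3* RNAi by 0.28 (SE 0.0468, adjusted p = 5.04e-05). *hda-6*, the worm HDAC6, had 2971, 3035 and 3107 after *cco-1* RNAi, 2576, 2426 and 2571 after *his-3* RNAi and 2253, 2339 and 2405 on EV. It had the same order of groups, with rises of 0.38 (SE 0.0431, adjusted p = 6.63e-07) after *cco-1* RNAi and 0.11 (SE 0.0432, adjusted p = 0.0349) after *his-3* RNAi. The calls of *hda-3* and *hda-6* after *his-3* RNAi were lost with DESeq2, its size factors, no filter and without single libraries. Without EV library 1 the values were 0.076 for *hda-3* and 0.056 for *hda-6*.

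*hda-4*, the class IIa deacetylase, had 1262, 1259 and 1245 after *cco-1* RNAi, 1319, 1585 and 1377 after *his-3* RNAi and 1379, 1426 and 1385 on EV. The *cco-1* libraries lay just below the others (log2 fold change -0.15, SE 0.0591, adjusted p = 0.0289), a call that was lost under 9 alternatives and a value that became 0.01 by the reference genes. With *his-3* RNAi the log2 fold change was 0.03 (adjusted p = 0.673).

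The largest changes among the deacetylases were in *hda-5*, *hda-10* and *hda-11*. *hda-11* (WBGene00007953, chromosome V, 10526184 to 10528444), whose human namesake is HDAC11, had 175, 202 and 133 after *cco-1* RNAi, 68.4, 51.5 and 68.9 after *his-3* RNAi and 61.2, 57.4 and 59.6 on EV. Only the *cco-1* libraries were high, at 2.87 times the EV level. The fitted log2 fold change was 1.52 (SE 0.161, adjusted p = 2.94e-07) after *cco-1* RNAi, 0.08 after *his-3* RNAi (adjusted p = 0.742) and 1.44 (SE 0.156, adjusted p = 3.99e-07) between the treatments. *hda-10* (WBGene00001838, chromosome II, 13882705 to 13888034) had 685, 633 and 707 after *cco-1* RNAi, 411, 476 and 443 after *his-3* RNAi and 479, 451 and 431 on EV. It showed the same pattern, with 0.57 (SE 0.0716, adjusted p = 2.09e-06) for *cco-1* RNAi, -0.03 for *his-3* RNAi (adjusted p = 0.749) and 0.60 (SE 0.071, adjusted p = 1.06e-06) between them. *hda-5* (WBGene00009663, chromosome II, 11799037 to 11802409) had 249.7, 284 and 234 after *cco-1* RNAi, 179.9, 153 and 157 after *his-3* RNAi and 326, 365 and 313 on EV. It was lowest after *his-3* RNAi, at 0.489 of the EV level, with log2 fold changes of -0.38 (SE 0.0934, adjusted p = 0.00165) after *cco-1* RNAi, which did not pass the test with the reference genes, and -1.03 (SE 0.0981, adjusted p = 1.64e-07) after *his-3* RNAi.

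The 4 sirtuins, deacetylases and related enzymes that use NAD+, included the strongest rise after *his-3* RNAi. *sir-2.1*, the SIRT1 ortholog known from studies of ageing, had 2008, 2058 and 2118 after *cco-1* RNAi, 1873, 1714 and 1779 after *his-3* RNAi and 1719, 1797 and 1763 on EV. It rose after *cco-1* RNAi by 0.23 (SE 0.045, adjusted p = 0.000261), while the *his-3* libraries overlap with EV (0.02, adjusted p = 0.689). *sir-2.3* (WBGene00004802, chromosome X, 13331686 to 13333846), one of a pair of SIRT4-like mitochondrial sirtuins, had 34.8, 31.9 and 43.1 after *cco-1* RNAi, 58.1, 53.3 and 55.7 after *his-3* RNAi and 9.33, 23.2 and 9.46 on EV. EV library 2 was more than the other EV libraries together but below all RNAi libraries. The level was 2.64 times that on EV after *cco-1* RNAi, 1.403 (SE 0.291, adjusted p = 0.00041) on the log2 scale, and 4.04 times after *his-3* RNAi, 2.01 (SE 0.263, adjusted p = 6.31e-06) on the log2 scale. *sir-2.2*, the other gene of the pair, lies just upstream on the same strand and was far higher per length, with 29 ± 0.64 RPKM on EV, against 0.447 ± 0.255 RPKM for *sir-2.3*. It had 1129, 1197 and 1074 after *cco-1* RNAi, 918, 846 and 895 after *his-3* RNAi and 1075, 1090.3 and 1122 on EV. So it did not pass the test after *cco-1* RNAi (0.05, adjusted p = 0.421) and was lower after *his-3* RNAi (log2 fold change -0.31, SE 0.0534, adjusted p = 0.000129), a call that was lost by library size and reference gene scaling.

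The comparisons with EV share their EV libraries, so their counts are not set against each other. The treatments were compared directly, and 41 of the 69 genes differed between them. After *cco-1* RNAi 39.1% of the 69 were higher and 20.3% lower than after *his-3* RNAi. Among all genes tested these shares were 31.8% and 36.8%. Of the 8 deacetylases, 6 were higher and 1 lower after *cco-1* RNAi than after *his-3* RNAi, of 7 jumonji genes 4 and 2, of 5 arginine methyltransferases 3 and 0, of 4 sirtuins 3 and 1, and of 3 LSD1-type demethylases 2 and 0. The H3K36 group had 2 of 4 genes lower after *cco-1* RNAi and none higher, and the acetyltransferases 1 of 5 lower. Under TMM, *prmt-6*, *jmjd-5*, *jmjd-3.3* and *amx-1* were called in opposite directions against EV. Each differed between the treatments under every alternative. In all, 16 of the 27 genes called higher and 9 of the 14 called lower after *cco-1* RNAi than after *his-3* RNAi kept their call under each of the 19 alternatives. Kept calls were not counted for all genes tested. The 11 higher calls that were lost were each lost by library size and by the reference genes, and the 5 lower calls that were lost were each lost with DESeq2.

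The partners of these enzymes were counted from lists of genes that are no members, under TMM scaling alone. Among all genes tested, 34.9% rose and 35.9% fell after *cco-1* RNAi, and 26.9% rose and 27.9% fell after *his-3* RNAi. Whether the counts of any partner list hold under other scalings was not tested. All 11 genes of deacetylase and LSD1 complexes rose after *cco-1* RNAi and 9 rose after *his-3* RNAi, with medians of 0.27 and 0.16 on the log2 scale. The largest change was in *chd-3*, a NuRD-type remodeller, with 3791, 3884 and 3851 after *cco-1* RNAi, 1848, 1958 and 1957 after *his-3* RNAi and 1365, 1487 and 1407 on EV. The *cco-1* libraries stood far above the others. Its rise was 1.44 (SE 0.0443, adjusted p = 2.58e-14) after *cco-1* RNAi and 0.44 (SE 0.0451, adjusted p = 4.38e-07) after *his-3* RNAi. Of 7 partners of acetyltransferases, 5 rose and 1 fell after *cco-1* RNAi and 6 rose after *his-3* RNAi, and of 9 COMPASS partners 4 rose and 2 fell after *cco-1* RNAi and 3 rose and 1 fell after *his-3* RNAi. *cfp-1*, the COMPASS subunit that binds CpG DNA in mammals, rose by 0.47 (SE 0.0478, adjusted p = 1.56e-07) after *cco-1* RNAi and by 0.32 (SE 0.0477, adjusted p = 2.75e-05) after *his-3* RNAi.

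Of 11 genes of H3K9 methylation and anchoring, 4 rose and 2 fell after *cco-1* RNAi and 3 rose and 1 fell after *his-3* RNAi. Among these *met-2*, the SETDB1 ortholog that mono- and dimethylates H3K9, had 2367, 2465 and 2327 after *cco-1* RNAi, 2300.1, 2230.5 and 2255 after *his-3* RNAi and 2066, 2096 and 2067 on EV, above EV in all RNAi libraries. It rose by 0.20 (SE 0.0402, adjusted p = 0.00029) after *cco-1* RNAi and by 0.12 (SE 0.0401, adjusted p = 0.0156) after *his-3* RNAi. *cec-1*, a chromodomain protein, fell by 0.41 after *cco-1* RNAi (adjusted p = 3.75e-06) and fell by 0.29 after *his-3* RNAi (adjusted p = 0.000193). Of 10 genes of the DREAM complex and the synMuv B class, 5 rose and 1 fell after *cco-1* RNAi and 7 rose after *his-3* RNAi. Of 6 tested genes of other histone methylation, 3 rose and 2 fell after *cco-1* RNAi and 2 rose and 1 fell after *his-3* RNAi, among them *dot-1.3*, a relative of the H3K79 methyltransferase DOT1, which fell by 0.96 after *cco-1* RNAi (adjusted p = 4.71e-07). Of the left-out demethylases *jmjd-1.2* and *jmjd-3.1*, neither was called after *cco-1* RNAi and *jmjd-3.1* rose after *his-3* RNAi (0.38, adjusted p = 1.54e-05).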

How the data were processed

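The authors sequenced stranded libraries of polyadenylated RNA, aligned the reads with STAR (2.5.3a) to WBcel235 and counted reads per gene with HTSeq, per the labels. The deposited values are whole-number counts, neither normalised nor filtered. Reads that aligned to several places (6.30 to 7.27% of the reads in a library) were not counted, which lowers genes with near-identical copies, and lines that name no gene held 7.47 to 8.34% of a library's reads in all and were left out.

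Low genes were left out by requiring over 5 reads in over 3 libraries. The rest were tested with edgeR 4.0.16 (R 4.3.3): TMM scaling, a single model of 3 group means over 9 libraries, the quasi-likelihood F test (two-sided), a prior count of 0.125 and Benjamini-Hochberg adjustment over all 16817 genes. A gene was called at an adjusted p under 0.05. SE is the size of the log2 fold change over the square root of F. Normalised counts are counts divided by TMM-scaled library size, at the mean size. The biological coefficient of variation was 4.92%. The labels number the 3 libraries of each group but do not say that they come from separate cultures, so p-values measure the spread between these libraries. Lengths and positions come from Ensembl release 115 of the same build. The procedure was tested on simulated data.

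The members, roles and lists were chosen with earlier results of these data known. Per-library values are given for members called against EV with a change of 0.5 or more on the log2 scale, and for a list of well-known enzymes. *set-9*, *set-26*, *amx-1*, *sir-2.2* and the members below the filter were added after their values were seen. Partners named are *met-2* and genes among the lowest p of their list, and *jmjd-3.1*. No protein, promoter or other sequence was used here. Alternatives were limma-voom (3.58.1), DESeq2 (1.42.0), 4 other scalings, other filters, only the groups compared, a replicate block, each library left out, and size thresholds of 1 and 2. A 95% exact interval of a ratio of reads covers counting error only.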

Additional observations from a re-analysis of the deposited data

How the results depend on the processing

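With *cco-1* RNAi, 27 of the 36 rises and 8 of the 15 falls were called under all 19 alternatives that keep the call rule, after *his-3* RNAi 14 of 22 and 4 of 17, and between the treatments 16 of 27 and 9 of 14. Kept calls were not counted for all genes, so these counts, and their difference between rises and falls, cannot be read as particular to the members. The next tally covers the named members called against EV or between treatments, without *set-9*, *set-26*, *amx-1* and *sir-2.2*, which were added later. In it, 1606 values kept their direction and call, 114 lost the call and 8 reversed. The reversed values were *hda-4* after *cco-1* RNAi (0.0128 by the reference genes) and, after *his-3* RNAi, *hpl-2* (0.0677 by library size, 0.139 by the reference genes), *prmt-1* (0.0149 by the reference genes), *prmt-5* (0.000629 and 0.0731) and *set-15* (0.0562 and 0.128). The scaling itself moves all genes, as the medians of all genes show.

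With *cco-1* RNAi, 4 members rose and 3 fell with a log2 fold change of at least 1, and 0 and 1 with at least 2, by construction of the rule, and 8 fell by the reference genes. The median of 0.15 became 0.24 by upper quartile and by library size, 0.32 by the reference genes and 0.17 with no filter, and lay between 0.12 and 0.17 with a library left out. With *his-3* RNAi, 2 rose and 1 fell by at least 1, and 1 and 0 by at least 2. By library size 42 rose and 6 fell, and by the reference genes 42 and 4. The median of 0.04 became 0.0080 with DESeq2 and 0.00797 with its size factors, 0.12 by upper quartile, 0.25 by library size and 0.33 by the reference genes, and lay between 0.0089 (without EV library 1) and 0.041 with a library left out. Between the treatments, 3 were higher and 2 lower after *cco-1* RNAi by at least 1, and 1 and 1 by at least 2. By library size 16 were higher and 25 lower, by the reference genes 16 and 23, and DESeq2 gave 9 lower. The median of 0.05 became 0.0916 with DESeq2, 0.0913 with its size factors, -0.0757 by library size and -0.0766 by the reference genes, and lay between 0.0326 and 0.0826 with a library left out, the ends being without *his-3* library 3 and without EV library 1. The cause of changes other than fewer genes under a threshold was not tested.

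No pairing by replicate number was seen over all genes tested. Deviations from the group means correlated at -0.041 to 0.053 for the 9 same-numbered pairs and at -0.070 to 0.068 for the 18 others. With 3 libraries per group and counting noise in low genes, this cannot tell whether same-numbered libraries shared a culture or batch. A replicate block gave 36 rises and 15 falls after *cco-1* RNAi (median 0.15), 23 and 18 after *his-3* RNAi (median 0.04) and 27 and 13 between the treatments (median 0.05). The block also gave calls to *mes-2* and *set-16* after *his-3* RNAi. Calls were gained as well as lost. With *set-9*, *set-17*, *set-26*, *amx-1* and *sir-2.2* left out, 5 named members were not called after *cco-1* RNAi. Of these, 3 were called by upper quartile, by library size and by the reference genes. Of 16 not called after *his-3* RNAi, 4 were called by upper quartile and 10 by library size and by the reference genes, and of 17 not called between the treatments, 6 by library size and 4 by the reference genes. Depth limits what can be said of *set-28*, with 4 to 14 reads in a library, and of *jmjd-3.2*, *prmt-4*, *set-13* and *set-8*, which were below the filter.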

Other observations

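The X chromosome holds 15 of the 73 genes, more than any other chromosome, but the share of all genes on it was not counted. Of the 13 tested there, 6 rose and 4 fell after *cco-1* RNAi (median log2 fold change 0.07) and 3 rose and 4 fell after *his-3* RNAi (median -0.13). Of the 56 tested on autosomes, 30 rose and 11 fell after *cco-1* RNAi (0.16) and 19 rose and 13 fell after *his-3* RNAi (0.06). The difference between X and autosomes was not tested. The same values for all genes were not computed, so these cannot be read as particular to the members.

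Members in the lowest band of EV level per length had the largest median change. The bands use the EV level, to which each change is also relative, and values from few reads vary more by counting. In the lowest band, *set-28* passed the filter only through RNAi libraries, and the members below the filter are in no band. All genes were not banded in this way, so the pattern cannot be read as a trait of the members. The 5 genes at or below 1 RPKM on EV had a median change of 1.27 in size on the log2 scale after *cco-1* RNAi and 0.95 after *his-3* RNAi, the 23 genes above 1 and up to 10 RPKM had 0.33 and 0.17, and the 40 genes above 10 and up to 50 RPKM had 0.20 and 0.17. Of the members with a change of at least 1 in size with either treatment, *set-15* and *set-27* were the only ones above 10 RPKM on EV, at 19.4 ± 0.246 and 33.7 ± 0.154 RPKM (mean ± SD, n = 3).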
